A study of Mus musculus with 24 samples.

Results

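The genes of the clathrin coat and of its plasma membrane adaptor AP2 were followed through striatal RNA of wild-type (wt) and rpS6P-/- mice. The group held 10 genes: Cltc, Clta and Cltb for clathrin itself, Ap2a1, Ap2a2, Ap2b1, Ap2m1 and Ap2s1 for the AP2 complex, and Picalm and Snap91 for 2 accessory adaptors. Each was taken by its symbol from the table of read counts, which lists 24079 genes, and each was counted in all 24 libraries. They were chosen by their fold changes, because as a family they lay lower in rpS6P-/- than in wt heavy polysomal fractions of the dorsal striatum, so that contrast and every value built on it is described below without a test. The list has no threshold of its own.

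rpS6P-/- mice carry a knockin of ribosomal protein S6, constitutive and in the whole body, in which all the serines that can be phosphorylated are alanines, and wt littermates served as controls. Both genotypes shared a mixed background of C57Bl/6, Sv129 and ICR, and both sexes were used. The labels name no treatment. Dorsal striatum (DS) and nucleus accumbens (Acb) were dissected apart, and tissue from several mice was pooled. Libraries were made from whole lysates and from the heavy polysomal fractions, which hold mRNA bound by more than 4 ribosomes per the labels. For ratios by pool, the lysate and heavy libraries of 1 number were treated as 1 pool, a match that the methods do not spell out. With 3 libraries per region, fraction and genotype, there were 8 groups, and each library is a pool of mice from 1 knockin line. Read counts per gene cannot show an exchange of single bases in Rps6, so the genotype labels were not checked from the data. Ages were not given in the sources used here.

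Clathrin-coated vesicles carry receptors and membrane from the cell surface into the cell, and at synapses they help to retrieve synaptic vesicle membrane after release. AP2 binds phosphoinositide lipids of the plasma membrane and the sorting signals of cargo proteins, recruits clathrin, and so starts the coat. Clathrin assembles from triskelia, each built of heavy chains with light chains bound along them. In neurons the same coat takes up AMPA and dopamine receptors. Polysomal fractions separate messages by how many ribosomes they carry, so the ratio of a message in heavy polysomes to its level in the lysate reads its loading, often called translational efficiency. Phosphorylation of rpS6 has long been discussed together with TOP messages, which begin with a C and a run of pyrimidines.

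The first transcribed bases of the coat genes are shown because a TOP sequence would lie there. Of 11 annotated starts of the 10 genes (RefSeq, GRCm38.p6), 1 began with a C followed by 4 bases that were each C or T, read on the transcribed strand, while 2.51% of 32851 annotated starts of all mouse genes in the same table did so. That start belongs to Clta, and the other Clta start does not have it. The match describes these letters only, and which start is used in the striatum was not measured. The 10 bases before the start are in lower case and the first 20 transcribed bases in capitals, 5′ to 3′, for both Clta starts, for the heavy chain Cltc, for Ap2m1, the most abundant adaptor message, and for Ap2a2 and Snap91.
Clta at chr4:44012660-44012689, plus strand: cttccaccttCTCCCTCTTCTCGCTCGTCC
Clta at chr4:44004433-44004462, plus strand: ggaggtctgtGGTCTTTGCTCTATGACCTG
Cltc at chr11:86757548-86757577, minus strand: tgaggagactGGGCGGAGTTCTGCCTCGGG
Ap2m1 at chr16:20535470-20535499, plus strand: ctgcgatcggGGCGGGGTGGGGCGGGAGCA
Ap2a2 at chr7:141562170-141562199, plus strand: cgccgggcgcGAGGCTCAGCGTGCGCGCCA
Snap91 at chr9:86880689-86880718, minus strand: cgcgcggggaCGCAGGGCGCGCGCAAGAAC

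The genes lie on 6 chromosomes of GRCm38.p6, with Ap2a1 (chr7:44900373-44929490, minus strand), Ap2a2 (chr7:141562180-141633011), Ap2s1 (chr7:16738444-16749290) and Picalm (chr7:90130192-90209447) on chromosome 7. Ap2b1 (chr11:83298719-83405035) and Cltc (chr11:86694352-86757567, minus strand) are on chromosome 11, and the remaining genes are Ap2m1 (chr16:20535480-20544909), Clta (chr4:44003816-44032846), Cltb (chr13:54592386-54611373, minus strand) and Snap91 (chr9:86765923-86880734, minus strand). Values count reads over the exons of each gene. Their longest annotated coding sequences fall into 2 classes. Ap2s1 has 426 coding bases, Cltb 687, Clta 744 and Ap2m1 1305, while Picalm has 1980, Snap91 2703, Ap2a2 2814, Ap2b1 2853, Ap2a1 2931 and Cltc 5037. Ap2a1 and Ap2a2 are close paralogs, as are Clta and Cltb, so reads in stretches they share may be assigned to neither copy.

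Libraries held 9280589 to 34703044 reads assigned to genes, of which the 10 coat genes took 0.218 to 0.343%. No coat gene had fewer than 899 reads in any library, and their counting error was not set against the spread between libraries. In lysates 15.2 to 26.1%, and in heavy fractions 0.897 to 3.85%, of the reads belonged to the small brain RNA Bc1, and levels are therefore given as counts scaled to library size (CPM) after TMM scaling over all 24 libraries. Of the 14 medium spiny neuron markers 13 were measured, all above 0 in every group, with a summed level of 5639.5 to 6798 CPM in lysates. The 10 cortical excitatory neuron markers summed to 241 to 376 CPM in Acb lysates and to 1046 to 1269.5 CPM in DS lysates.

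Ap2m1, which encodes the medium subunit of AP2 that reads tyrosine-based sorting signals, was the most abundant coat message per length. In wt DS lysates it was at 174 ± 9.92 CPM per kilobase of exon (mean ± SD, n = 3), with all annotated exons of a gene merged. The small subunit Ap2s1 followed at 86.1 ± 11.3 CPM per kilobase, then the light chain Clta at 78.8 ± 10.8 and the heavy chain Cltc at 67.4 ± 3.27, and the libraries of these neighbours overlapped. The large subunits, which form the body of the complex and bind membrane, clathrin and accessory proteins, lay together, with Ap2a1 at 47.7 ± 4.56, Ap2a2 at 46.8 ± 2.89 and Ap2b1 at 42.2 ± 4.70 CPM per kilobase, again with overlap between neighbours. Snap91 (AP180, the synaptic member of the pair) was at 34.7 ± 1.05, the other light chain Cltb at 25.1 ± 0.983, and Picalm, the broadly expressed relative of Snap91, was lowest at 12.7 ± 0.624 CPM per kilobase, none of these 3 overlapping its neighbours. The same 10 places were taken in wt Acb lysates, apart from Ap2b1 and Ap2a2, which changed places and overlapped there as well, and Snap91 and Cltb also overlapped in Acb. Merged exons span 4868 bases in Cltb and 1800 in Clta, against 1004 and 1135 in the transcript with the longest coding sequence. Before division by length, Clta was at 142 and Cltb at 122 CPM in wt DS lysates (means). The place of Cltb thus depends on the length used.

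**Figure D1:**
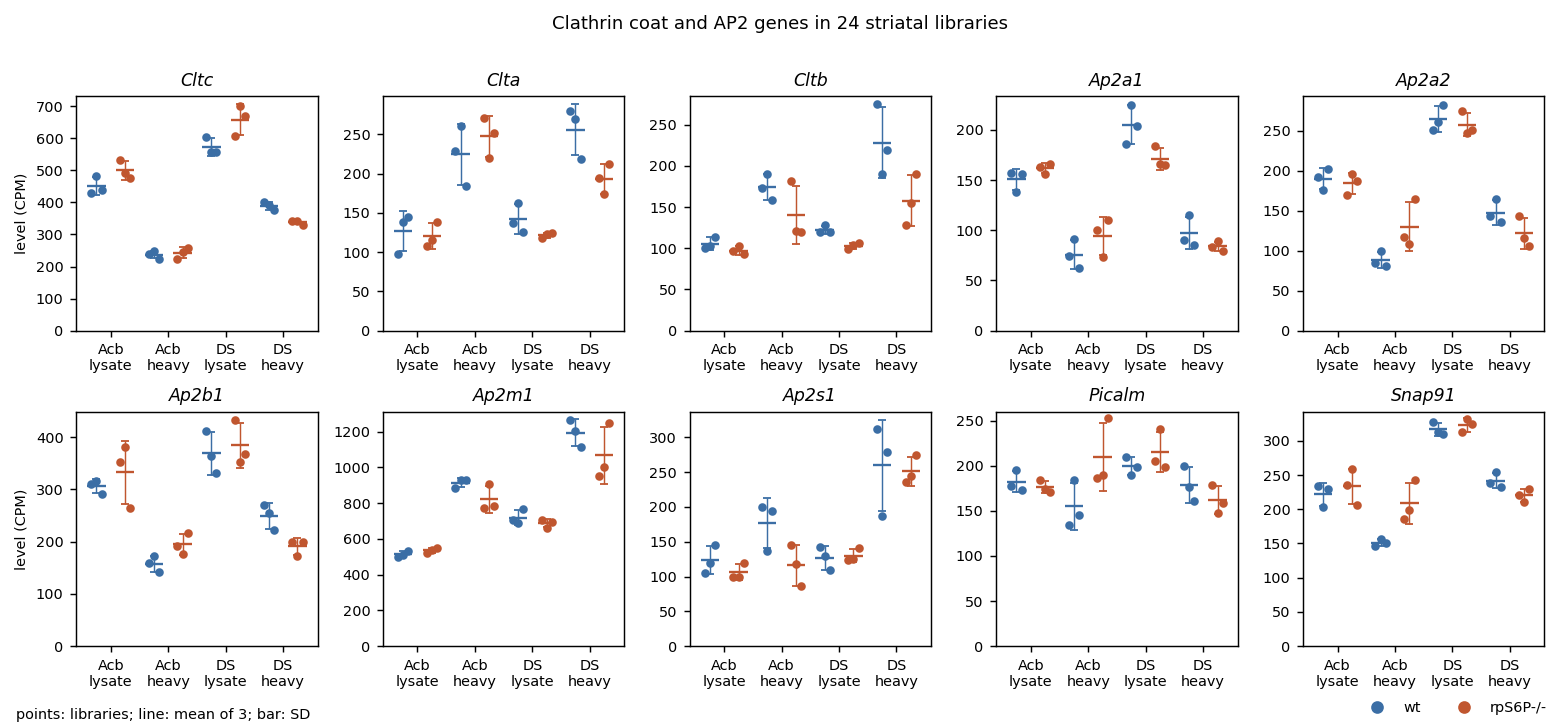
Level of each coat gene (CPM, vertical axis from 0) in whole lysates and heavy polysomal fractions of Acb and DS, with wt in blue and rpS6P-/- in orange; points are libraries, horizontal lines the mean of 3 and bars the SD. Ap2m1 reaches 1265 CPM, and Cltc and the Ap2a genes lie lower in heavy fractions than in lysates while Clta and Cltb lie higher.

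The coat genes split by fraction. In wt Acb, messages of the clathrin light chains and of the medium and small AP2 subunits were higher in heavy polysomal fractions than in lysates, while messages of the heavy chain, the large AP2 subunits and Snap91 were lower. By edgeR's quasi-likelihood test 9 of the 10 passed an adjusted p of 0.05, 4 higher and 5 lower, where 11.5% of 16687 genes tested passed as higher and 11.6% as lower. The median log2 fold change was -0.44 over the 10 genes and 0.037 over all genes tested.

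Ap2m1 was at 499, 510.4 and 534 CPM in the wt Acb lysates and at 885, 930.2 and 932 CPM in the heavy libraries of the same numbers. Every heavy library lay above every lysate, with a log2 fold change of 0.78 ± 0.13 (SE, n = 3 against 3, adjusted p = 2.74e-05). Clta, a light chain that steadies the triskelion and binds regulators of actin, rose in the heavy fractions from 98.1, 138 and 145 CPM to 228, 261 and 184 CPM, without overlap (log2 fold change 0.77 ± 0.16, adjusted p = 0.00044). Cltb, its paralog, was likewise higher in all 3 heavy libraries, by 0.67 ± 0.16 on the log2 scale (adjusted p = 0.00143). For Ap2s1 the fractions overlapped, with 106, 119 and 145 CPM in lysates and 200.5, 136 and 194 CPM in heavy fractions. Its log2 fold change of 0.47 ± 0.17 had an adjusted p of 0.0417, and the call was lost with DESeq2 size factors, with filterByExpr, in DESeq2, and without lysate 1, lysate 2, heavy library 1 or heavy library 3 of wt Acb (adjusted p = 0.222, 0.125, 0.19 and 0.152).

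Cltc, the heavy chain that forms the legs of the triskelion, went the other way. It was at 431, 484 and 440.3 CPM in wt Acb lysates and at 238, 248 and 225 CPM in heavy fractions, a log2 fold change of -0.98 ± 0.14 (adjusted p = 1.67e-06). The groups were far apart, the highest heavy library lying well under the lowest lysate. The membrane-binding alpha subunits fell as well, Ap2a2 by 1.16 ± 0.16 (adjusted p = 1.23e-06) and Ap2a1 by 1.04 ± 0.17 (adjusted p = 8.57e-06) on the log2 scale. The beta subunit Ap2b1, which binds clathrin, had a log2 fold change of -1.01 ± 0.15 (adjusted p = 4.58e-06), and Snap91, which helps to set the size of synaptic vesicles, one of -0.60 ± 0.15 (adjusted p = 0.00235). Picalm, which recruits clathrin and the vesicle SNARE proteins, was the exception, with a log2 fold change of -0.29, a 95% confidence interval of -0.60 to 0.030 and an adjusted p of 0.203.

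In rpS6P-/- Acb 7 of the 10 genes passed, 3 higher and 4 lower, against 9.50% and 9.74% of all genes. Clta (log2 fold change 1.03 ± 0.17, adjusted p = 1.38e-05), Ap2m1 (0.61 ± 0.13, adjusted p = 0.00094) and Cltb (0.52 ± 0.16, adjusted p = 0.0171) were higher in heavy fractions. Cltc (-1.05 ± 0.14, adjusted p = 5.7e-07), Ap2a1 (-0.78 ± 0.17, adjusted p = 0.000534), Ap2b1 (-0.78 ± 0.15, adjusted p = 0.000238) and Ap2a2 (-0.51 ± 0.16, adjusted p = 0.0199) were lower. Ap2s1 at 0.11 (95% confidence interval -0.24 to 0.46), Snap91 at -0.17 (-0.47 to 0.13) and Picalm at 0.24 (-0.073 to 0.56) did not pass. Picalm had a positive ratio in each of the 3 knockin pools (0.015, 0.13 and 0.57 as log2 of heavy over lysate CPM) and a negative one in each wt pool (-0.40, -0.086 and -0.26). The call of Cltb was lost without heavy knockin library 1 (log2 fold change 0.31, adjusted p = 0.225) and without lysates 1 or 3 (0.0521 and 0.0637). That of Ap2a2 was lost without heavy libraries 1 or 2 (0.0998 and 0.153) and without lysates 2 or 3 (0.0825 and 0.0529).

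In DS the same 4 genes were higher in heavy fractions and the same 6 lower, in both genotypes, given here as a description because the DS heavy libraries chose the genes. With the trend on coding length, described next, removed, Cltc (0.18), Picalm (0.049) and Snap91 (0.00019) were no longer below 0 in wt DS. Ap2s1 had a log2 fold change of 1.03 ± 0.15 in wt and 0.95 ± 0.15 in rpS6P-/- DS, and no DS pool of either genotype had a ratio under 0.53 for it. Cltb (0.90 in wt and 0.62 in rpS6P-/-), Clta (0.85 and 0.67) and Ap2m1 (0.73 and 0.64) were higher too. Ap2a1 was lowest in wt at -1.08 and was at -1.03 in rpS6P-/-. Cltc went from -0.56 ± 0.13 in wt to -0.96 ± 0.13 in rpS6P-/-, and Ap2b1 from -0.57 ± 0.14 to -1.01 ± 0.14. For both genes the pools of the genotypes did not overlap (-0.60, -0.50 and -0.57 in wt and -0.82, -1.04 and -1.02 in rpS6P-/- for Cltc). How many of all genes were apart in this ratio was not counted. Picalm was nearest to 0, at -0.16 in wt and -0.41 in rpS6P-/-.

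**Figure D2:**
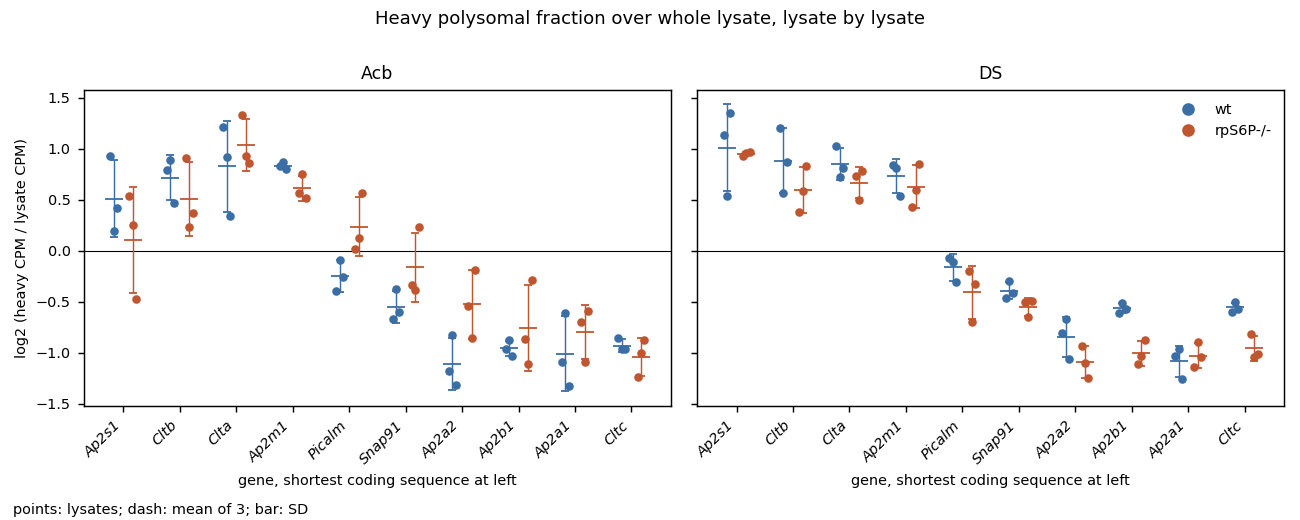
Log2 ratio of heavy polysomal CPM to lysate CPM for each pool of mice, by gene from the shortest coding sequence (left) to the longest, in Acb and DS; points are pools, dashes the mean of 3 and bars the SD, with wt in blue and rpS6P-/- in orange. In DS the 4 genes at left lie above 0 and the 6 at right below it in every pool, and in Acb Cltc lies between -1.24 and -0.86.

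The split of the coat genes followed coding length. The 4 genes with the shortest coding sequences, up to 1305 bases, were the 4 with positive ratios in wt Acb, and the 6 with 1980 bases or more had negative ones. Genes at large showed such a trend: in wt Acb the median log2 fold change of heavy over lysate was 0.33 for 8376 genes with coding sequences under 1500 bases and -0.29 for 7093 longer ones, a cut set after the values were seen. Cltc, Ap2a1, Ap2a2, Ap2b1 and Snap91 lay below the median of the longer genes, and Ap2m1, Clta, Cltb and Ap2s1 above that of the shorter ones. Picalm, at -0.29, lay close to the median of the longer genes. When the trend on coding length was removed from each library, Ap2m1 kept a log2 fold change of 0.65 (adjusted p = 0.000112), Ap2a2 one of -0.83 (adjusted p = 5.71e-05), Ap2a1 -0.69 (0.00103) and Ap2b1 -0.67 (0.000425). The other 6 genes did not pass then, among them Cltc at -0.34 (adjusted p = 0.0623) and Ap2s1 at 0.014 (0.967). In rpS6P-/- Acb, removing the trend ended the calls of Ap2a2 (-0.36, adjusted p = 0.0915) and Cltb (0.25, 0.271) and left those of Clta, Ap2m1, Cltc, Ap2a1 and Ap2b1.

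**Figure D3:**
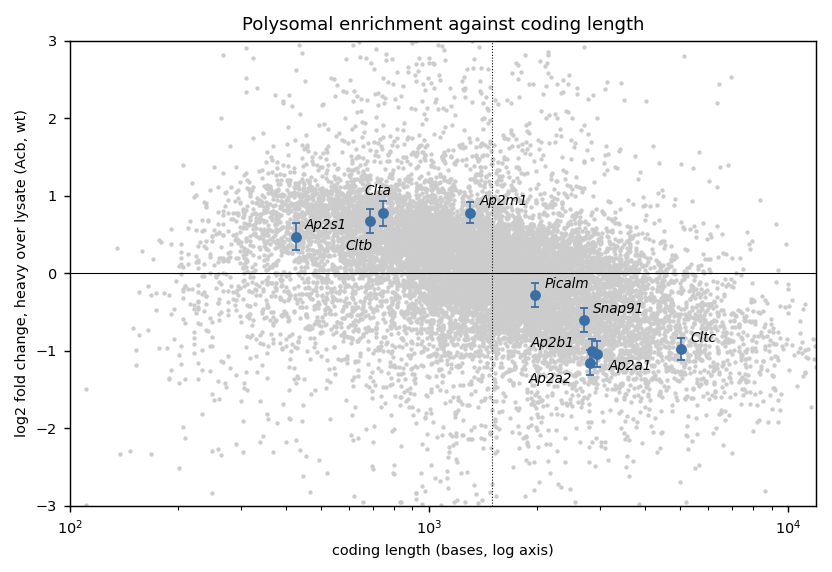
Log2 fold change of heavy polysomal fractions over lysates in wt Acb against coding length in bases (log axis), with the coat genes in blue (bars are SE, n = 3 against 3) and all other tested genes with a coding length in grey; values outside the axes are not drawn and the dotted line marks 1500 bases. Ap2m1 lies at 0.78 and the large subunits Ap2a1, Ap2a2 and Ap2b1 near -1.01 to -1.16.

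The comparison of genotypes asks whether the messages of the coat load differently when rpS6 cannot be phosphorylated. In Acb heavy fractions no coat gene passed an adjusted p of 0.05 in edgeR's quasi-likelihood test, and neither did any of the 16227 genes tested (0% called). Before adjustment, 5 of the 10 coat genes and 3518 of all genes (21.7%) had p under 0.05, and DESeq2 called 1090 genes. Ap2a2, Snap91, Picalm and Ap2b1 were higher in every rpS6P-/- library than in any wt library, where 11.3% of all genes were, and 7 of the 10 had positive log2 fold changes against 49.3% of all genes. That share was 68.0% for genes with 1500 or more coding bases and 36.1% for shorter ones. The 6 longer coat genes ran from 0.076 to 0.60 and the 4 shorter ones from -0.57 to 0.18. The median was 0.26 over the 10 genes (0.14 without wt library 3) and -0.0088 over all genes.

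Ap2a2 was at 84.6, 99.5 and 80.9 CPM in wt and at 117, 108 and 165 CPM in rpS6P-/- Acb heavy fractions. The log2 fold change was 0.60 ± 0.18 (SE, n = 3 against 3), with a 95% confidence interval of 0.21 to 0.98 and an adjusted p of 0.116. Snap91 was at 146, 156 and 151 CPM in wt and at 186, 199 and 242 CPM in rpS6P-/- fractions (0.51 ± 0.16, adjusted p = 0.118). In both genes every knockin library lay above every wt one, with the third knockin library highest. Picalm (0.48 ± 0.18, adjusted p = 0.147) and Ap2b1 (0.35 ± 0.16, adjusted p = 0.216) had their lowest knockin library just above the highest wt one. Ap2s1 had the lowest fold change, with 200.5, 136 and 194 CPM in wt and 145, 118 and 86.5 CPM in rpS6P-/- fractions, which overlapped by 1 library on each side (-0.57 ± 0.20, adjusted p = 0.132).

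Cltc, at 238, 248 and 225 CPM in wt and 225, 246 and 259 CPM in rpS6P-/- fractions, differed by 0.076 ± 0.15 (95% confidence interval -0.24 to 0.39). The remaining log2 fold changes were 0.36 ± 0.19 for Ap2a1, 0.18 ± 0.17 for Clta, -0.12 ± 0.14 for Ap2m1 and -0.27 ± 0.18 for Cltb, with adjusted p from 0.282 to 0.669. Tools disagreed on the 3 genes with the widest changes: DESeq2 gave adjusted p of 0.0245 for Snap91, 0.0276 for Ap2a2 and 0.0438 for Ap2s1, and a fit of edgeR over all 24 libraries 0.0278, 0.0194 and 0.0284. Coding length moved with the genotype in these libraries, the median log2 fold change being -0.19 over genes under 1500 coding bases and 0.16 over longer ones, and with that trend removed Ap2a2 was at 0.41 (adjusted p = 0.192), Snap91 at 0.33 (0.238) and Ap2s1 at -0.041 (0.929). Of the marker lists, 6 of the 10 oligodendrocyte markers were lower in rpS6P-/- Acb heavy fractions, with a median of -0.49 (summed level 4867 to 5346 CPM, and 5098 to 6301 CPM in wt), while 8 of the 10 astrocyte markers (2641 to 2955 and 1991 to 2807 CPM) and 9 of the 13 medium spiny neuron markers (7539.7 to 8852 and 7049.8 to 8474 CPM) were higher. The medians of the other lists lay between -0.10 for microglia and 0.19 for endothelial cells, no marker passed the test, and the part of these cells in the result was not tested.

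In DS heavy fractions, the contrast that chose the genes, all 10 lay lower in rpS6P-/- mice, beside 46.6% of all genes, with a median of -0.19 and, over all genes, 0.030. Without wt library 1 or 3 or knockin library 1, 9 of the 10 did, Ap2s1 then being at 0.12, 0.021 and 0.0012. The values are given without a test. Cltb had the largest difference, with 275, 189.7 and 219.6 CPM in wt and 128, 155 and 190.0 CPM in rpS6P-/- fractions, a log2 fold change of -0.52 ± 0.18 (SE, n = 3 against 3). Its genotypes overlapped, since 1 knockin library reached the lowest wt one. In 4 other genes every knockin library lay under every wt one, as in 5.39% of all genes.

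Clta was at 280.3, 269 and 219 CPM in wt and at 195, 174 and 212 CPM in rpS6P-/- DS heavy fractions, a log2 fold change of -0.39 ± 0.17. Ap2b1 was at 270.1, 256 and 222 CPM in wt and at 200.2, 172 and 200.3 CPM in rpS6P-/- fractions (-0.37 ± 0.17). The beta subunit and the light chain thus had similar fold changes, larger than those of the other genes without overlap. Cltc was at 400.0, 393 and 375 CPM in wt and at 344, 341 and 331 CPM in rpS6P-/- fractions (-0.19 ± 0.16), and Snap91 at 239, 254 and 233 and 221, 211 and 230.3 CPM, respectively (-0.12 ± 0.17). The libraries of Cltc were well apart, and those of Snap91 and Clta only narrowly. Ap2a2 was at -0.27, Ap2a1 at -0.20, Ap2m1 at -0.15, Picalm at -0.13 and Ap2s1 at -0.035. Beside these values, 8 of the 10 cortical excitatory neuron markers were lower in rpS6P-/- DS heavy fractions (summed level 1127 to 1462 CPM, and 1315 to 1375 CPM in wt), and 9 of the 10 endothelial markers were higher (15.6 to 24.2 and 8.12 to 14.4 CPM). Medium spiny neuron markers (10 of 13), oligodendrocyte, astrocyte and microglial markers (8 of 10 each) and choroid plexus markers (5 of 6 tested) were also mostly higher, with summed levels that overlapped between the genotypes. The part of any of these cells in the result was not tested. The difference between the regions, Acb minus DS, in the genotype's log2 fold change in heavy fractions ran from -0.52 for Ap2s1 to 0.88 for Ap2a2 and was positive in 9 of the 10 genes, again without a test.

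**Figure D4:**
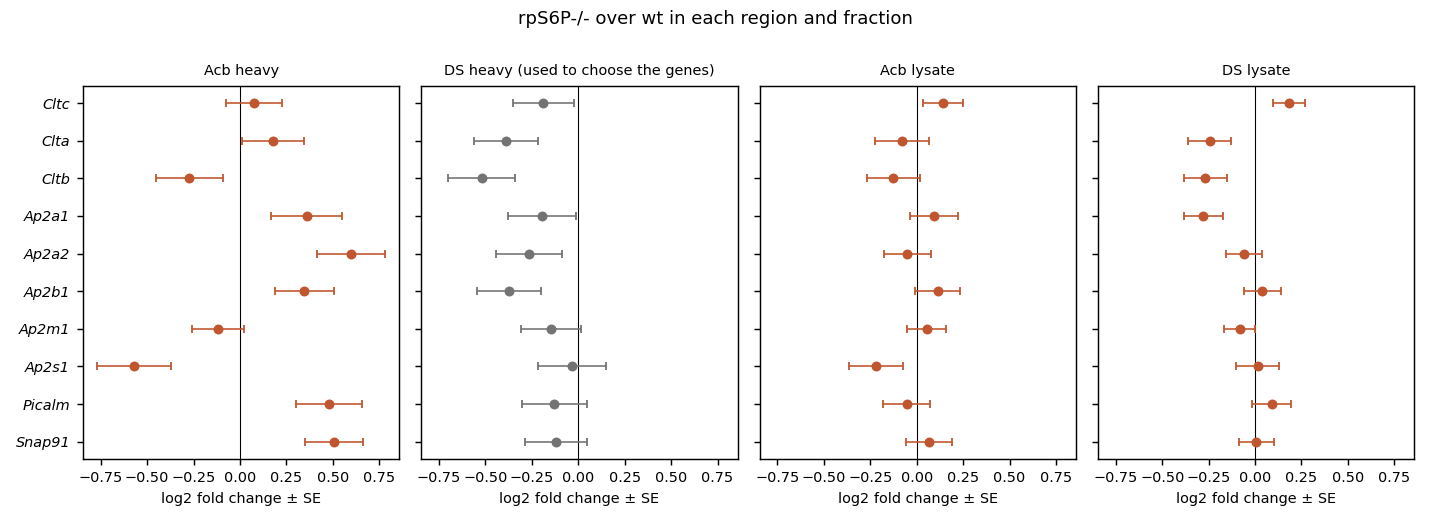
Log2 fold change of rpS6P-/- over wt for each coat gene in heavy polysomal fractions and whole lysates of Acb and DS (points, with bars for the SE, n = 3 against 3); the grey panel is the contrast that chose the genes. In Acb heavy fractions the values run from -0.57 (Ap2s1) to 0.60 (Ap2a2), in DS heavy fractions from -0.52 (Cltb) to -0.035 (Ap2s1).

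In whole lysates, which played no part in choosing the genes, no coat gene passed between genotypes in edgeR or DESeq2. Before adjustment 0 coat genes in Acb and 4 in DS had p under 0.05 in edgeR, where 455 of 15393 and 1415 of 15601 genes did. In Acb lysates the adjusted p was 1 for each, and 0.00650% of 15393 genes passed. Log2 fold changes ran from -0.22 for Ap2s1 to 0.14 for Cltc, no gene's groups were apart, and the 95% confidence interval of Cltc was -0.079 to 0.36. For Ap2a2 the interval was -0.30 to 0.20 and for Snap91 -0.18 to 0.32.

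In DS lysates no coat gene passed either, while 19 of 15601 genes (0.122%) did. The genotypes were apart in 4 of the 10 genes, 3 lower and 1 higher in rpS6P-/- mice, where 6.31% and 7.31% of all genes were. Both light chains had every knockin library below every wt one, Cltb at 119, 128 and 119.8 CPM in wt and 98.7, 103 and 107 CPM in rpS6P-/- lysates (-0.27 ± 0.12, adjusted p = 0.461). Clta was at 137, 163 and 125 CPM in wt and 117, 123 and 124 CPM in rpS6P-/- lysates (-0.24 ± 0.12, adjusted p = 0.52). Ap2a1 did so too (-0.28 ± 0.11, adjusted p = 0.374). Cltc lay the other way, at 606, 701 and 669 CPM in rpS6P-/- and 605, 557 and 556 CPM in wt lysates (0.18 ± 0.087, adjusted p = 0.527). The heavy chain thus had values of opposite sign in the 2 DS fractions, of which the lysate value did not pass and the heavy one has no test. No gene's genotype difference in lysates was shown to differ between Acb and DS, with adjusted p from 0.953 for Ap2a1 (difference 0.37 ± 0.16) to 1, and 0.00611% of 16364 genes passing.

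Translational efficiency, taken as the change of heavy over lysate between the genotypes in 1 model over both fractions, called no coat gene and none of 16687 genes in Acb (0%), though 3 coat genes and 1992 of all genes (11.9%) had unadjusted p under 0.05, and DESeq2 called 0 genes. Ap2a2 had the largest difference, with log2 ratios of -1.18, -0.83 and -1.32 in wt pools and -0.54, -0.85 and -0.18 in rpS6P-/- pools. The genotypes overlapped by 1 pool on each side, and the model gave 0.65 ± 0.23 (95% confidence interval 0.19 to 1.10, adjusted p = 0.29). Picalm, whose pools did not overlap, was at 0.53 ± 0.22 (adjusted p = 0.343) and Snap91 at 0.44 ± 0.21 (adjusted p = 0.41). The share of all genes whose pools were apart was not counted. Cltc was near 0 at -0.068 ± 0.20, and Ap2s1 lowest at -0.36 ± 0.24 (adjusted p = 0.574). In DS, without a test, 9 of the 10 differences were negative beside 50.2% of all genes, led by Ap2b1 at -0.44 ± 0.19 and Cltc at -0.40 ± 0.18, and Ap2a1 was at 0.050 ± 0.21.

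Several coat messages were lower in Acb than in DS lysates. In wt mice all 10 log2 fold changes of Acb over DS were negative and 5 passed, where 5.95% of 16364 genes passed as lower and 49.0% had negative values. Without Acb library 1 Ap2s1 (0.083) and Clta (0.019) were positive, as Ap2s1 was without Acb library 2 (0.0062) or DS library 1 (0.066). The median was -0.28 over the coat genes and 0.0021 over all genes. Snap91, which is largely neuronal, was at 234, 203 and 229 CPM in Acb and 328, 313 and 311 CPM in DS lysates, a log2 fold change of -0.49 ± 0.11 (adjusted p = 0.000717). Ap2m1 was at 499, 510.4 and 534 CPM in Acb and 704, 687 and 765 CPM in DS lysates (-0.45 ± 0.096, adjusted p = 0.000309). In both genes every Acb library lay below every DS library.

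The alpha subunits Ap2a2 (-0.45 ± 0.11, adjusted p = 0.00226) and Ap2a1 (-0.42 ± 0.12, adjusted p = 0.0089) and the heavy chain Cltc (-0.31 ± 0.099, adjusted p = 0.0235) passed as well. Ap2b1 at -0.24 and Cltb at -0.18 were apart between the regions but did not pass (adjusted p = 0.193 and 0.434), and Clta at -0.14, Picalm at -0.10 and Ap2s1 at -0.014 overlapped. In rpS6P-/- lysates 4 passed, against 5.52% of all genes as lower: Ap2a2 (-0.44 ± 0.11, adjusted p = 0.00316), Snap91 (-0.43 ± 0.11, 0.00389), Cltc (-0.36 ± 0.099, 0.00878) and Ap2m1 (-0.32 ± 0.095, 0.0178). Ap2a1 was at -0.043 there (95% confidence interval -0.27 to 0.19). The calls of Ap2a1 and Cltc in wt mice, and of Ap2m1 in rpS6P-/- mice, were lost in a fit over all 24 libraries (adjusted p = 0.0557, 0.0716 and 0.0639). In wt mice that of Cltc was also lost without Acb library 1 or 3 or DS library 1 (adjusted p = 0.0848, 0.0693 and 0.093), and that of Ap2a1 without Acb or DS library 2 (0.079 and 0.0866). In rpS6P-/- mice Snap91 lost it without Acb library 3 (0.051), Cltc without DS library 2 (0.0891) and also with the coding length trend removed (0.0505), and Ap2m1 without DS library 1 or 3 (0.0831 and 0.0619).

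In lysates, fewer cells of a type and less RNA per cell cannot be told apart. The cortical excitatory neuron markers moved with the region, 7 of 10 being called lower in wt Acb than in wt DS lysates (253 to 327 and 1046 to 1269.5 CPM summed), and 8 of the 10 microglial markers were called higher in Acb (259.9 to 342 and 153 to 180.1 CPM). Astrocyte markers summed to 2520.1 to 3009.8 CPM in Acb and 1814 to 1946 CPM in DS, and those of oligodendrocytes to 3889 to 4513 and 2969 to 3697 CPM. Of the 13 medium spiny neuron markers 7 were called lower and 3 higher in wt Acb, with a median of -0.30 and sums of 5639.5 to 6137 and 5917 to 6798 CPM, and in rpS6P-/- lysates 5 were called lower and 3 higher. Of 7 choroid plexus markers 2 and of 10 endothelial markers 0 were called higher in wt Acb. The part of these cells in the regional difference of the coat genes was not tested.

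**Figure D5:**
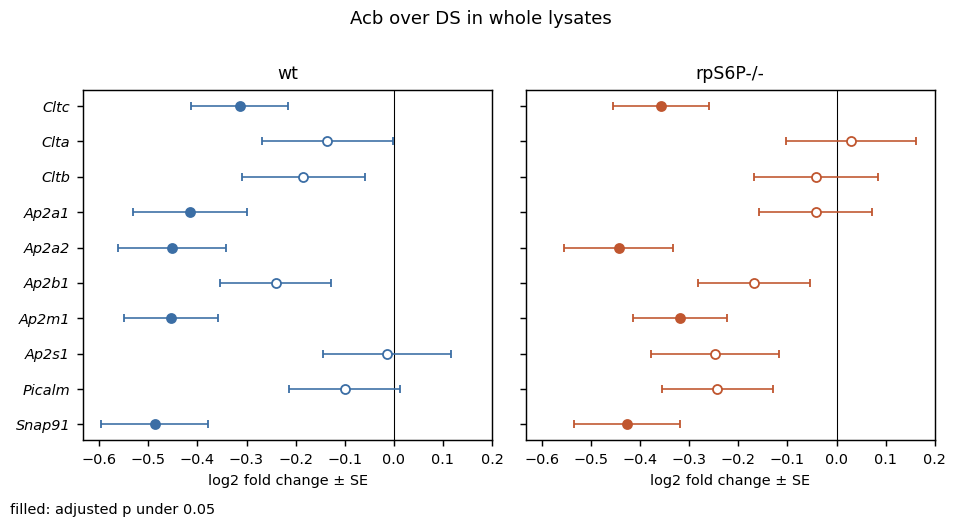
Log2 fold change of Acb over DS in whole lysates of wt (left) and rpS6P-/- mice (right) for each coat gene; points carry the SE (n = 3 against 3) and filled points have adjusted p under 0.05. All wt values lie below 0, from -0.49 for Snap91 to -0.014 for Ap2s1.

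The coat works with other proteins, and 4 lists of them were examined beside it. Of 29 genes whose proteins start the coat or choose cargo, 2 were higher and 5 lower in heavy fractions than in lysates of wt Acb. Necap1, which binds AP2 (0.70, adjusted p = 0.000184), and Clvs1, a lipid-binding protein of clathrin-coated vesicles (0.75, 0.000355), were higher. The kinase Aak1 (-0.62, adjusted p = 0.00154), which phosphorylates the medium subunit of AP2, the scaffold Itsn1 (-0.52, adjusted p = 0.0111) and the actin linkers Hip1r (-0.91, adjusted p = 0.000449) and Hip1 (-0.79, adjusted p = 0.00718) were among those lower. Of 18 membrane-bending and scission proteins, 2 were higher, the endophilins Sh3gl2 (0.41, adjusted p = 0.036) and Sh3glb2 (0.53, adjusted p = 0.00523), and 6 lower. Among the lower ones were the dynamins Dnm1 (-1.30, adjusted p = 6.6e-08) and Dnm3 (-0.97, adjusted p = 4.02e-06), which pinch the vesicle off, and Amph (-0.95, adjusted p = 1.65e-05) and Pacsin1 (-0.75, adjusted p = 0.000302), which bend membrane.

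Of 14 genes whose proteins strip the coat or turn over phosphoinositides, 0 were called higher and 6 lower, and 11 of the 14 log2 fold changes were negative. They included the lipid phosphatase Synj1 (-1.11, adjusted p = 7.8e-07), the uncoating chaperone Hspa8 (-0.74, adjusted p = 0.00034) and its auxilin partners Dnajc6 (-0.82, adjusted p = 8.66e-05) and Gak (-0.77, adjusted p = 0.000366). The list of other adaptors held 28 genes, namely subunits of other adaptor complexes and Gga1, Gga2, Gga3, Clint1 and Scyl2. Of these 28, 2 small subunits were higher, Ap1s2 (0.69, adjusted p = 0.000615) and Ap3s2 (0.67, adjusted p = 0.0012), and 7 genes were lower. Among the lower ones were the large subunits Ap3d1 (-1.36, adjusted p = 9.43e-08), Ap3b2 (-1.29, adjusted p = 1.98e-06), Ap1b1 (-0.88, adjusted p = 2.06e-05) and Ap1g1 (-0.75, adjusted p = 0.000534). Over all genes 23.1% were called in this comparison, and the median log2 fold changes were -0.13 for the coat-initiation list, 0.0018 for membrane bending and scission, -0.27 for uncoating and -0.25 for the other adaptors. Positive values were found in 32.8% of genes with 1500 or more coding bases and in 69.5% of shorter ones. The calls of these lists were not repeated with the trend on coding length removed.

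In rpS6P-/- Acb, where 9.50% of all genes were called higher and 9.74% lower, 5 of the 29 coat-initiation genes were called higher and 2 lower. Of the 18 membrane-bending genes 3 were higher and 4 lower, of the 14 uncoating genes 1 was higher and 5 lower, and of the 28 genes of the other adaptors 1 was higher and 6 lower. Higher in heavy fractions were Reps2 (0.68, adjusted p = 0.000429), Necap1 (0.73, 0.000169), Eps15 (0.55, 0.00793), Clvs1 (0.53, 0.0117), Sh3gl2 (0.69, 0.000564), Bin1 (0.58, 0.00448), Sh3glb2 (0.62, 0.00168), Pip5k1b (1.0, 0.0141) and Ap1s2 (0.86, 5.08e-05). Lower were Aak1 (-0.50, adjusted p = 0.012), Eps15l1 (-0.59, 0.0446), Dnm1 (-0.75, 0.000405), Dnm3 (-0.83, 5.78e-05), Dnm2 (-0.64, 0.0452) and Amph (-0.50, 0.0186). The lower genes of the uncoating and adaptor lists included Hspa8 (-0.58, adjusted p = 0.00554), Synj1 (-0.80, 0.000139), Inpp5f (-0.90, 0.000129), Gak (-0.56, 0.011), Ap3d1 (-0.98, 2.9e-05), Ap3b2 (-0.90, 0.000394), Ap1b1 (-0.79, 0.000144) and Ap1g1 (-0.49, 0.0255).

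By edgeR's quasi-likelihood test no gene of the 4 lists passed between genotypes in Acb heavy fractions, Acb lysates or DS lysates, while 26 of 89, 1 of 89 and 6 of 88 had unadjusted p under 0.05. Of all genes, 3518 of 16227, 455 of 15393 and 1415 of 15601 did, in the same order. DESeq2 called 10 higher and 3 lower in Acb heavy fractions, 0 in Acb lysates and 1, as higher, in DS lysates. Over all genes it called 561 higher and 529 lower in Acb heavy fractions, 1 lower in Acb lysates, and 44 higher and 51 lower in DS lysates. In Acb heavy fractions the median log2 fold changes of the lists were 0.24 for coat initiation, 0.27 for membrane bending and scission, 0.18 for uncoating and 0.23 for the other adaptors, beside 0.26 for the 10 coat genes and -0.0088 over all genes. Genes with 1500 or more coding bases had a median of 0.16 and shorter ones of -0.19. The lists were not refitted with that trend removed. Among their most abundant members, Pacsin1 was at 0.73 (adjusted p = 0.0983), Dnm1 at 0.59 (0.114), Reps2 at 0.38 (0.157), Hspa8 at 0.21 (0.533) and Ap1s1 at -0.49 (0.138). In DS heavy fractions, given without a test, the medians were -0.043, -0.21, -0.11 and -0.10 in the same order, beside 0.030 over all genes. The same genes were at -0.10 (Pacsin1), -0.24 (Dnm1), 0.049 (Reps2), -0.32 (Hspa8) and -0.10 (Ap1s1).

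Between the regions, 6 of 29 coat-initiation genes, 4 of 18 membrane-bending genes, 5 of 14 uncoating genes and 0 of 28 genes of the other adaptors were called lower in wt Acb than in wt DS lysates, beside 5.95% of all genes. They included the coat-initiation genes Aak1 (-0.48, adjusted p = 0.000726), Eps15 (-0.52, 0.00109), Epn1 (-0.52, 0.00198) and Numbl (-0.60, 0.00652). The membrane-bending genes were Sh3gl2 (-0.94, adjusted p = 1.01e-09), Dnm1 (-0.71, 7.49e-08), Amph (-0.68, 1.29e-05) and Pacsin1 (-0.52, 0.000273). Among uncoating genes were Pip5k1c, a kinase that makes the lipid AP2 binds (-0.91, adjusted p = 6.2e-09), Synj2 (-1.09, 6.46e-05), Pip5k1a (-0.52, 0.032) and Dnajc6 (-0.42, 0.00644). Ston2 (1.06, adjusted p = 0.00499), the phosphoinositide phosphatase Inpp5f (0.67, 7.54e-06) and Ap1s2 (0.76, 1.46e-05) were higher in Acb. In rpS6P-/- lysates 3, 4, 5 and 0 genes of these lists, in the same order, were called lower in Acb, beside 5.52% of all genes, Sh3gl2 (-0.83, adjusted p = 4.01e-08) and Synj2 (-1.27, 4.22e-06) among them, and Reps1 (0.71, 0.0236), Inpp5f (0.62, 3.38e-05) and Ap1s2 (0.56, 0.00188) higher.

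Across the 24 libraries the coat genes formed 2 blocs, which is a description, since the libraries share regions, fractions and scaling. Cltc, Ap2a1, Ap2a2 and Ap2b1 varied together, with Pearson r of 0.856 to 0.938 between any pair, on log2 CPM. Ap2m1, Ap2s1, Clta and Cltb had r of 0.538 to 0.857 with each other, and r between the blocs was negative, from -0.755 for Cltc with Clta to -0.29 for Cltc with Ap2s1. Snap91 went with the first bloc (r of 0.758 to 0.898), and Picalm less so (0.427 to 0.629). Among 4047 other genes with a mean of at least 50 CPM, those most like the mean pattern of the 10 genes were Atp6v1h (r = 0.923), a subunit of the vacuolar proton pump, Fbxw7 (0.921), Apbb1 (0.902), Tuba4a (0.893) and Pls3 (0.89), each over 24 libraries. As the 2 blocs ran against each other, this mean is not a pattern that all 10 genes share.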

How the data were processed

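Read counts per gene of 24 libraries were used as the authors deposited them, with 24079 genes, 5363 of them at 0 in every library. Per the methods and the submitters' processing notes, stranded poly(A) libraries were sequenced as single reads, aligned to mm10 with TopHat2 2.0.13 and Bowtie2 2.2.3, and counted on the annotated strand with HTSeq 0.6.1p1. Reads shared by overlapping genes were not counted by that mode. No column was left unused.

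The members and the lists were chosen with earlier results of these data known. Groups came from the labels. Genes with at least 15 reads over the libraries of a comparison were fitted with edgeR 4.0.16 (quasi-likelihood F test, two-sided, TMM scaling, R 4.3.3) on the libraries of the groups compared, with Benjamini-Hochberg adjustment over all genes tested and a threshold of 0.05. Loading between genotypes was an interaction of fraction and genotype. Intervals are 95% intervals from the fitted model. Levels are CPM with TMM scaling over all 24 libraries. Contrasts holding DS heavy libraries were fitted in the same way and are given without p. Each library is a pool of mice, so p-values measure the spread between such pools. Counts of same-group libraries differed beyond sampling noise in every pair.

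Per the methods, input RNA was kept from each sample before its gradient. The heavy and lysate libraries of 1 number were therefore treated as pairs in the ratios of single pools and in an alternative with a replicate block. The main fits between fractions, and for loading between genotypes, did not pair them. The methods do not say that lysates were pooled as the heavy fractions were, or that the numbers match. Residuals of the heavy and lysate libraries of such pairs, over genes with at least 5 CPM, correlated at -0.0439 to 0.0922, with 0 of 12 pairs above 0.1. The genotypes are different mice, and whether same-numbered Acb and DS libraries share mice is not given in the sources used here.

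Named were the 10 members, the genes of 4 lists that passed (the 4 highest in CPM where more passed in 1 direction), the most abundant list genes in heavy comparisons of genotype, and the 5 genes with at least 50 CPM most like the members. Alternatives were DESeq2 1.42.0, its size factors, 2 other filters, a fit over all 24 libraries, a replicate block, a trend on coding length (loess on log2 CPM in each library, span 0.5) and leaving out each library. Coding lengths came from the mouse annotation for 20441 genes. A protein length table, planned for the trend, was not used here. Scripts were tested on simulated counts.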

Additional observations from a re-analysis of the deposited data

Results flagged for a closer look

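Ap2b1 and Snap91 were flagged because their genotype values in heavy fractions lay on opposite sides in the regions. In Acb every rpS6P-/- library lay above every wt library, and in DS every rpS6P-/- library lay below every wt library. The log2 fold change in Acb exceeded that in DS by 0.73 for Ap2b1 and by 0.64 for Snap91. This difference was not tested, since the DS heavy libraries chose the genes, and lower values in DS were the ground for the choice. Gaps were narrow for Ap2b1 in Acb (172 CPM in the highest wt and 177 CPM in the lowest rpS6P-/- library). They were narrow too for Snap91 in DS (233 CPM in the lowest wt and 230.3 CPM in the highest rpS6P-/- library). The share of all genes apart in opposite directions was not counted.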

How the results depend on the processing

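No coat gene had fewer than 899 reads in any library, and the number of pools, 3 per group, limits these values. A p that missed the threshold does not show equal levels in the genotypes. Of 1692 values of single coat genes under other settings, 41 lost a call, 6 gained one and 23 had the opposite sign, 15 of these in tested comparisons and 8 in untested ones. In the untested comparisons 38 values moved by more than the replicate SD. The alternative on coding length was chosen after seeing the data, because coding lengths replaced the planned protein lengths. The cause of a change was not tested.

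The count of all genes called depended most on the setting. In Acb heavy fractions between genotypes it was 0, and 549 with genes of 1 or more reads, 4 with the length trend removed, 1090 in DESeq2 and 813 in a fit over all 24 libraries, and 3 coat genes in place of 0 were called by the last pair of these. In Acb lysates it was 1, and 0 with filterByExpr, 2 with genes of 1 or more reads and 0 over all 24 libraries. In DS lysates it was 19, and 2 with filterByExpr, 66 with genes of 1 or more reads, 11 with the length trend removed, 95 in DESeq2 and 0 over all 24 libraries. In DS heavy fractions it was 7, and 1, 37, 13, 17 and 0 in the same order. For loading between genotypes it was 0 in both regions, and 107 (Acb) and 5 (DS) with genes of 1 or more reads. The difference of genotype effects between regions called 1 gene in lysates, and 0 with filterByExpr, in DESeq2 and over all 24 libraries and 3 with genes of 1 or more reads. In heavy fractions it called 1, and 0 with filterByExpr, 353 with genes of 1 or more reads, 6 with the length trend removed, 236 in DESeq2 and 433 over all 24 libraries. Over all 24 libraries 3 in place of 5 coat genes passed between wt Acb and DS lysates, and the rpS6P-/- median moved from -0.25 to -0.29.

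Removing the length trend lowered the genes called between fractions from 3848 to 2429 in wt Acb, from 4104 to 2628 in wt DS and from 4224 to 2206 in rpS6P-/- DS, and coat genes called in wt Acb from 9 to 4. The median over the coat genes moved from -0.44 to -0.23 in wt Acb, from -0.27 to 0.11 in wt DS, from -0.48 to -0.17 in rpS6P-/- DS, and from 0.24 to 0.0997 for loading between genotypes in Acb. Direction turned for Cltc in Acb heavy fractions (0.076 to -0.078), for Ap2s1 (-0.36 to 0.11) and Cltb (-0.15 to 0.043) in Acb loading, and for Ap2a1 (-0.043 to 0.011) and Clta (0.029 to -0.023) between rpS6P-/- regions, where a fit over all 24 libraries also turned Clta (-0.011). In wt DS, between fractions and without a test, Cltc (-0.56 to 0.18), Picalm (-0.16 to 0.049) and Snap91 (-0.39 to 0.00019) turned as well. No turned value of a tested comparison was called before or after.

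With the replicate block, genes called between genotypes numbered 98 in Acb heavy fractions, 5 in Acb lysates, 71 in DS lysates and 31 in DS heavy fractions. For loading the block gave 106 genes in Acb and 6 in DS, and for the difference between regions 5 in lysates and 479 in heavy fractions. The block changed the call of no coat gene in the tested comparisons. Same-numbered libraries of the genotypes share only a number, with residual correlations of -0.347 to 0.372 in Acb heavy fractions. The block together with the length trend gave 28 loading genes in Acb, 2 in DS and 2355 between fractions in rpS6P-/- DS, with 4 coat genes called in wt Acb. Medians over the coat genes were then 0.0998 for loading in Acb, -0.23 between fractions in wt Acb, 0.10 in wt DS and -0.17 in rpS6P-/- DS, and Ap2s1 (0.11) and Cltb (0.034) in Acb loading and Cltc (0.17) and Picalm (0.040) between fractions in wt DS were positive.

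Leaving out 1 library at a time, the genes called between genotypes ran from 0 to 3 in Acb heavy fractions (highest without wt library 2), from 0 to 3 in Acb lysates (highest without wt library 3 or rpS6P-/- library 3), from 1 to 56 in DS lysates (lowest without rpS6P-/- library 2, highest without wt library 1) and from 0 to 29 in DS heavy fractions (lowest without rpS6P-/- library 2, highest without wt library 3). Loading genes ran from 0 to 81 in Acb (highest without rpS6P-/- heavy library 1) and from 0 to 12 in DS (highest without wt heavy library 3), and genes that differed in effect between regions from 0 to 183 in heavy fractions and from 0 to 4 in lysates. Medians over the coat genes ran from 0.14 (without wt library 3) to 0.35 in Acb heavy fractions, from -0.25 to -0.17 in DS heavy fractions, from -0.28 to -0.25 (rpS6P-/-) and from -0.32 to -0.25 (wt) between regions, from -0.022 to 0.054 in Acb lysates and from -0.077 to -0.017 in DS lysates. For loading between genotypes they ran from 0.12 (without rpS6P-/- heavy library 3) to 0.34 (without wt heavy library 2) in Acb and from -0.29 to -0.16 in DS, and for the difference between regions from 0.44 to 0.69 in heavy fractions and from -0.024 to 0.086 in lysates. Values that crossed 0 were those of Ap2a1 (-0.074 to 0.0085) and Clta (-0.083 to 0.086) between rpS6P-/- regions, of Ap2s1 (-0.14 to 0.083) and Clta (-0.24 to 0.019) between wt regions, of Ap2s1 between fractions of rpS6P-/- Acb (-0.057 to 0.27), none of which was called, and of Ap2s1 between genotypes in DS heavy fractions (-0.22 to 0.12), without a test.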
